A study of Mus musculus with 2 samples.

Results

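The presynaptic vesicle release genes examined here were 38 genes, listed by name, out of 21938 protein-coding genes of the GENCODE M21 annotation. They encode the proteins that dock, prime, fuse and retrieve synaptic vesicles. Their chromatin was assayed by DNase-seq in left cerebral cortex taken from 2 female mice, each 10 days old, and the 2 libraries are called replicates 1 and 2. The animals were B6CASTF1/J, a first-generation hybrid, so each cell carried 1 genome copy from CAST/EiJ, which differs from the reference sequence, and reads were not assigned to the parental copies. Both libraries belonged to 1 group without treatment, the labels gave both the same strain donor identifier, and the spread between them joins animal and technical variation. The tissue was cortex with all its cell types, so fewer cells with an open site and less openness in each cell cannot be told apart.

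At a nerve terminal, a vesicle carrying the SNARE protein synaptobrevin is primed at the active zone, where it pairs with syntaxin and SNAP-25 on the plasma membrane. Calcium that enters on an action potential binds synaptotagmin, the SNARE bundle zips up and the membranes fuse. NSF with its SNAP adaptors takes the spent bundle apart, and dynamin and synaptojanin help to retrieve the membrane. In the second postnatal week the mouse cortex forms synapses at a high rate. DNase I cuts accessible DNA, so dense cuts form peaks at open promoters and enhancers, and short stretches that are protected inside them are called footprints.

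A promoter was scored as open when the stricter peak list of both libraries held a peak within 500 bp of any annotated start site of the gene. In chromatin of the cortex, 33 of the 38 members (86.8%) were open, against 55.2% of all protein-coding genes. The 95% Wilson interval of the members' share ran from 72.7% to 94.2% and covers counting error only. With the larger, more permissive list of each library, 37 members (97.4%) had a promoter peak in both, against 61.0% of all genes. Cplx3, which encodes a complexin, was the 1 member without a promoter peak in any of the 4 lists. Such lists cannot tell a site open in few cells from a closed one. Members also had promoter footprints found in both libraries more often by count, with 35 of 38 (92.1%) against 54.0% of all genes.

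The sequences below are those of chosen members in the 150 bases before the gene's own start, the 5′ end of its record. Vamp2 and the paralogues Unc13a and Unc13b were chosen because footprints of both libraries cover whole motif matches or nearly whole ones there, Syn1 for its mixture of motifs, and Cplx3 as the promoter without a peak. Each runs 5′ to 3′ on the gene's strand of the mm10 assembly (GRCm38.p6, RefSeq), and capitals mark bases that lie in footprints of both libraries.
Vamp2 (chr11:69088340-69088489, plus strand): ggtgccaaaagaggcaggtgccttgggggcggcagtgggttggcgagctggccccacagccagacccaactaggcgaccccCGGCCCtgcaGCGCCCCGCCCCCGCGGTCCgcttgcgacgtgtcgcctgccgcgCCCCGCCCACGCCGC
Unc13a (chr8:71671758-71671907, minus strand): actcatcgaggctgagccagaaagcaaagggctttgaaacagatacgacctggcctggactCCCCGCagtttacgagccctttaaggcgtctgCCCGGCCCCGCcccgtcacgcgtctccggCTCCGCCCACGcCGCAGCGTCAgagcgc
Unc13b (chr4:43058803-43058952, plus strand): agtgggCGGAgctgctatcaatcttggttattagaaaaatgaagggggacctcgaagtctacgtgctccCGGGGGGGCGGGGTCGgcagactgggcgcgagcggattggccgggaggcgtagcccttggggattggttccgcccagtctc
Syn1 (chrX:20921005-20921154, minus strand): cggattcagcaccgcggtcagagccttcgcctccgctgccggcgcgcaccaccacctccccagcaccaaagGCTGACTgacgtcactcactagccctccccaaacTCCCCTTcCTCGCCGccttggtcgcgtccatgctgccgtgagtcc
Cplx3 (chr9:57606282-57606431, minus strand): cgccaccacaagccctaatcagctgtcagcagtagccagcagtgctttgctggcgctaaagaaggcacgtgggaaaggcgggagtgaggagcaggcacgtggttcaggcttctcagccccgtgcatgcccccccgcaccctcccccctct
In Vamp2, 41 of the 150 bases lay in footprints of both libraries, in Unc13a 38, in Syn1 21, in Unc13b 20 and in Cplx3 0. These counts follow from how the genes were chosen and do not stand for open members in general. The stretch of Vamp2 was 76.7% G or C and that of Cplx3 64.0%.

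**Figure D1:**
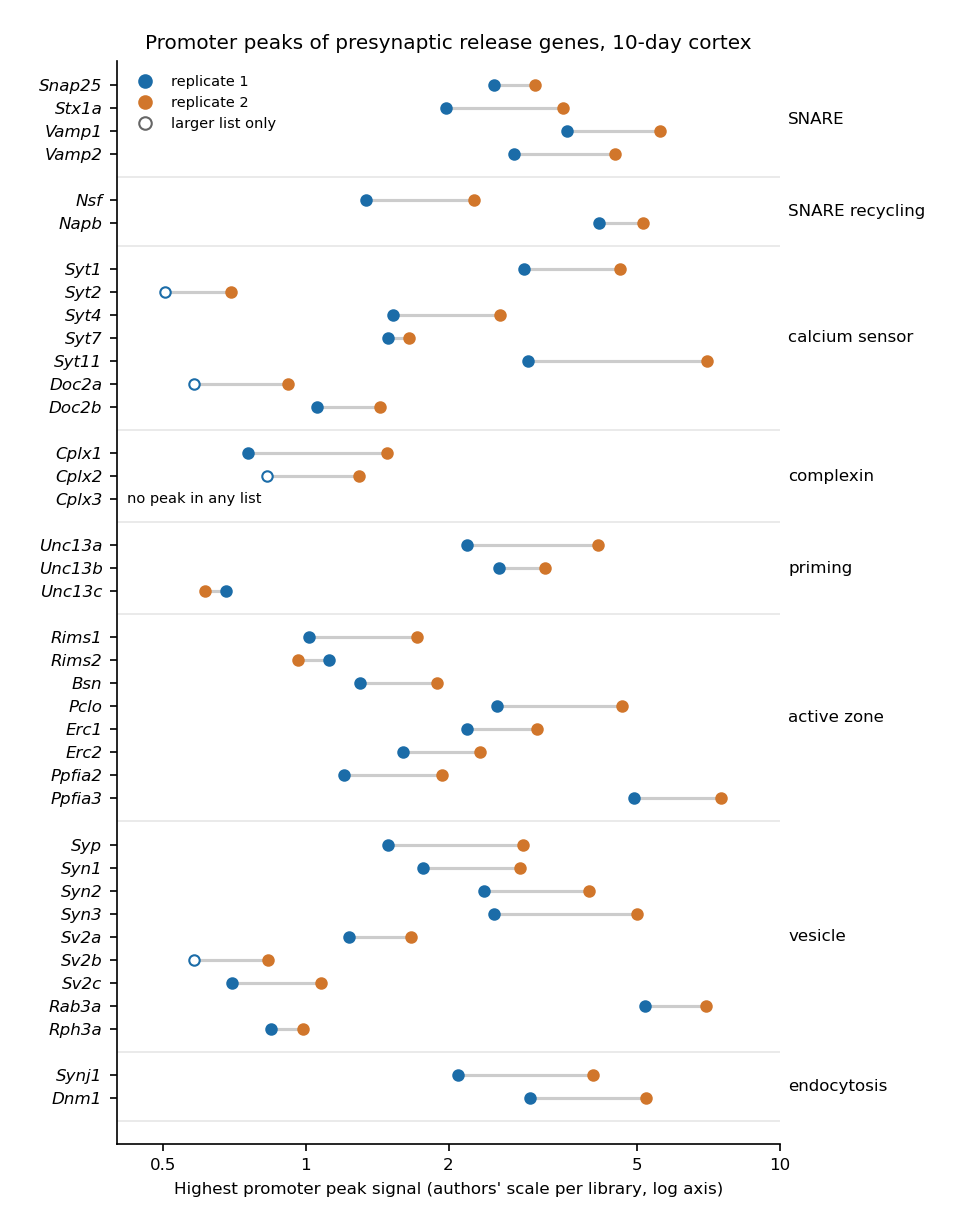
Highest promoter peak signal of each of the 38 members in replicate 1 and replicate 2 (log axis, the authors' scale of each library), ordered by role. Filled points are peaks of the stricter lists and open points peaks found in the larger list alone. Replicate 2 lies to the right of replicate 1 for all members with 2 filled points except Rims2 and Unc13c, and Cplx3 has no point.

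The SNARE genes were open without exception among the 4 listed. Signal here is the authors' value of a peak, scaled within each library, and a gene's promoter signal is its highest promoter peak. Snap25, the plasma membrane SNARE SNAP-25, had a promoter signal of 2.49 in replicate 1 and 3.04 in replicate 2. Stx1a, which encodes syntaxin-1A, had 1.97 and 3.49. The synaptobrevins Vamp1 and Vamp2 had 3.55 and 5.57, and 2.75 and 4.50. Vamp1 was thus above Vamp2 in each library, by 1.29-fold and 1.24-fold, but the ranges of the 2 genes overlapped. Of the recycling genes, Napb, the brain form of the SNAP adaptor, had 4.15 and 5.15. Nsf, the ATPase that takes SNARE bundles apart, had 1.34 and 2.27, below Napb in both libraries without overlap.

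Among 7 genes of the calcium sensor group, 5 were open in both libraries. Syt1, the fast sensor of synchronous release, had 2.89 and 4.61. Syt7, the slow, high-affinity sensor of asynchronous release, had 1.49 and 1.65, and Syt4, which lacks a residue needed for normal calcium binding, had 1.53 and 2.56. Syt11, likewise a synaptotagmin that does not sense calcium, had 2.95 and 7.01. Both values of Syt1 stood above both values of Syt4 and of Syt7, and so did both of Syt11. Syt2, the fast sensor used at many hindbrain and inhibitory synapses, had no stricter peak in replicate 1 and 0.697 in replicate 2, at an internal start site with the peak 62587 bp from the gene's own start. Its larger-list value in replicate 1 was 0.505. Doc2b, a high-affinity sensor linked to spontaneous release, had 1.06 and 1.43. Its paralogue Doc2a had no stricter peak in replicate 1, where the larger list held 0.581, and 0.917 in replicate 2.

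Complexins, small proteins that clamp and promote fusion at the SNARE bundle, were the group with the fewest open promoters, 1 of 3. Cplx1 had 0.754 in replicate 1 and 1.49 in replicate 2. Cplx2 had no stricter peak in replicate 1, where the larger list held 0.830, and 1.30 in replicate 2. Cplx3 had no peak, no footprint and no position with a listed false discovery rate of the cut rate within 500 bp of its starts in either library. It was the 1 member with no such position around any of its starts, where 8110 of 21938 genes had none in replicate 1 and 7711 in replicate 2.

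The Munc13 proteins prime docked vesicles for fusion. Unc13a, which encodes the main form in cortical neurons, had 2.19 and 4.12, and Unc13b had 2.56 and 3.20, so their order was opposite in the 2 libraries. Unc13c, a form known from cerebellar granule cells, had 0.678 and 0.614, the lowest mean of the open members. Unc13a stood above Unc13c by 3.22-fold in replicate 1 and 6.72-fold in replicate 2. Unc13c was above 3.30% of all open protein-coding genes.

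All 8 active zone genes were open, and they spanned most of the members' range. Ppfia3 (liprin-alpha-3), a scaffold of the active zone, had the highest mean of the 38 at 6.23 ± 1.83 (SD, n = 2), with 4.93 and 7.52 in the libraries. Its paralogue Ppfia2 had 1.20 and 1.94, 4.10-fold and 3.88-fold lower. Pclo had 2.53 and 4.65 and Bsn 1.30 and 1.89. These encode piccolo and bassoon, giant scaffolds of related structure, and Pclo lay above Bsn without overlap, by 1.94-fold and 2.46-fold. Erc1 had 2.19 and 3.08 and Erc2 1.61 and 2.33, so these ELKS scaffold genes overlapped. Rims1 had 1.02 and 1.71 and Rims2 1.12 and 0.963. The RIM proteins tether vesicles and calcium channels, and the order of the 2 genes was opposite in the 2 libraries.

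Of 9 genes for proteins on or attached to the vesicle, 8 were open. Rab3a, the GTPase of synaptic vesicles, had 5.18 and 6.996, a mean of 6.09 ± 1.28 (SD, n = 2). Its effector Rph3a (rabphilin) had 0.844 and 0.985. Synaptophysin, encoded by Syp, is one of the most abundant proteins of the vesicle membrane, and Syp had 1.49 and 2.87. The synapsins hold vesicles in the reserve pool: Syn1 had 1.77 and 2.83, Syn2 2.38 and 3.96 and Syn3 2.49 and 5.00. Their order was the same in both libraries, with Syn3 at the top, but the ranges overlapped in each pair. The SV2 glycoproteins were low, with 1.23 and 1.67 for Sv2a, 0.699 and 1.08 for Sv2c, and for Sv2b no stricter peak in replicate 1 (0.581 in the larger list) and 0.834 in replicate 2. In the retrieval group Dnm1, the neuronal dynamin, had 2.98 and 5.22 and Synj1, the lipid phosphatase synaptojanin-1, 2.10 and 4.03.

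Over the 33 open members the mean of both libraries ran from 0.646 to 6.23, a 9.64-fold range, with a median of 2.64. The median was 2.89 over the 12105 open protein-coding genes, and 20 of the 33 members lay below it. In replicate 1 the medians were 1.97 for open members and 2.30 for open genes, and in replicate 2 they were 3.04 and 3.46. The 5 highest means were those of Ppfia3, Rab3a, Syt11 (4.98), Napb (4.65) and Vamp1 (4.56). The weakest open promoter peak of a member held 98 signal steps in replicate 1 and 81 in replicate 2, the smallest unit in which the values of a library vary.

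**Figure D2:**
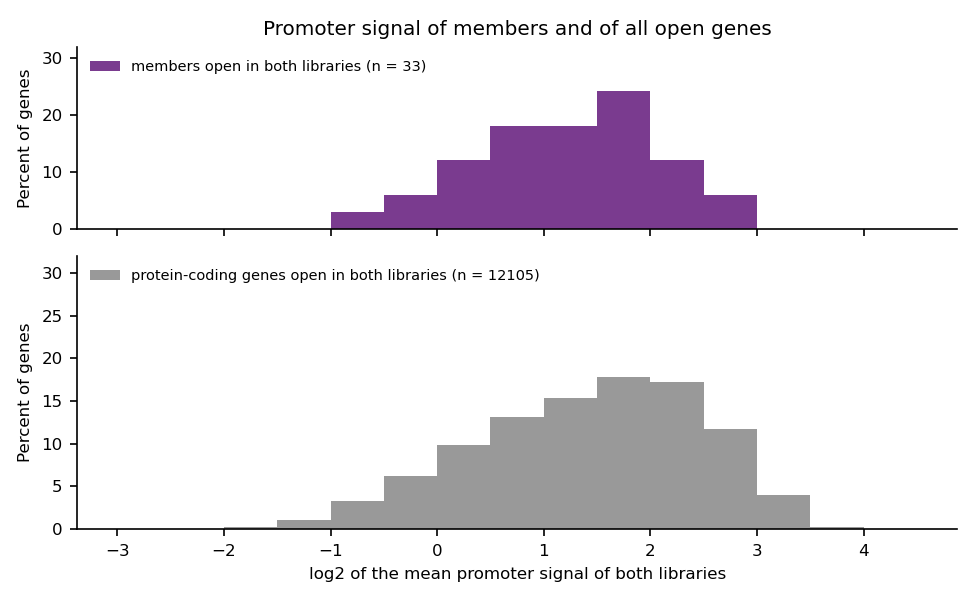
Distribution of promoter signal, as log2 of the mean of both libraries, for the 33 open members (top) and the 12105 open protein-coding genes (bottom), each bar as a percent of its own group. The highest bar of the members lies from 1.5 to 2 with 24.2% of them, where all open genes have 17.8%, and no member lies above 3.

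Replicate 2 was higher than replicate 1 for 31 of the 33 open members (93.9%), against 97.3% of all open genes. The median log2 ratio of replicate 2 to replicate 1 was 0.67 over members and 0.56 over all open genes, so most of this shift was common to the libraries as wholes. Rims2 (-0.22) and Unc13c (-0.14) ran the other way, and Syt11 had the highest ratio, 1.25. These 3 were the members farthest from the median of all open genes. In 32 of the 33 open members the strongest peaks of the 2 libraries overlapped. The exception was Syt7, whose strongest peak was centred at -399 bp from its own start in replicate 1 and at 11 bp in replicate 2. No strongest peak lay within 500 bp of the start of another protein-coding gene, while 4 lay that close to the start of another annotated gene (Ppfia2, Ppfia3, Syn2 and Synj1).

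Paralogues were compared by asking whether the lower of the 2 library values of one gene exceeded the higher value of the other, with a missing stricter peak set to 0. Of 28 pairs within 11 families, 16 were separated in this way and 25 kept their order in both libraries. For Cplx1 over Cplx2, the order in replicate 1 rests on that 0. The larger list of replicate 1 held 0.830 for Cplx2, above 0.754 for Cplx1, so a missing stricter peak need not mean a lower signal. Among the 18 pairs in which both genes were open, 9 were separated and 16 kept their order. Pairs of other open genes were not counted in this way, so these counts do not set the members' paralogues apart. Separation sets values of different libraries against each other. The shift between libraries, a median log2 ratio of 0.56 over all open genes, therefore makes overlap more likely. Order compares the genes within each library. With 2 values against 2, the smallest two-sided exact permutation p is 0.333, so no pair could pass a test at 0.05 and none is given. The separated pairs with peaks in both genes were Ppfia3 over Ppfia2, Pclo over Bsn, Unc13a and Unc13b over Unc13c, Syt1 and Syt11 over Syt4 and over Syt7, and Sv2a over Sv2c. The Vamp, Syn, Erc and Rims families held no separated pair, although every pair of Vamp, Syn and Erc kept its order in both libraries. Differences between paralogues in peak signal are differences in the strongest promoter peak and were not set against RNA here.

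Several members start at more than 1 place. The 38 genes had 220 annotated start sites, which fell into 123 groups when windows of 500 bp around them were merged, and 44 groups (35.8%) were open in both libraries, against 27.5% of the groups of all protein-coding genes. The group that holds the gene's own start was open in 32 of 38 members, against 50.6% of all genes. Counted within 500 bp of the own start itself, 32 of 38 members were again open in both libraries, against 49.5% of all genes. Of the other groups, 12 of 85 (14.1%) were open, against 8.44% over all genes. In 6 members (15.8%) more than 1 group was open, against 5.0% of all genes, and members had a median of 3 groups, against 2 for all genes. Erc2 had 4 open groups, with 1.61 and 2.33 at the own start, 1.48 and 2.18 at 1171 bp downstream, 0.851 and 1.39 at 176130 bp and 0.816 and 1.08 at 253642 bp. In Unc13b the own start had 2.56 and 3.20, a start 56157 bp downstream 1.05 and 1.68, and one at 150545 bp 0.858 and 1.24. In both genes each later open start had a lower signal than the one before it, in either library.

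Rims2 had its highest signal at the last open start. Its own start had 0.678 and 0.917, a start 193539 bp downstream 0.713 and 0.857, and a start 461305 bp downstream, near the 3′ end of the gene, 1.12 and 0.963. In replicate 1 the 3 values increase with distance, while in replicate 2 the middle one is the lowest and the last the highest. Ppfia3 had 4.93 and 7.52 at its own start, 1.16 and 2.28 at a start 5197 bp downstream and 1.34 and 1.70 at 25859 bp. Erc1 added 0.671 and 1.08 at 51253 bp, and Syn3 0.982 and 1.89 at 6999 bp.

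Syt11 was open at an internal start alone. Its own start had no peak even in the larger lists, while the start 2565 bp inside the gene had 2.95 and 7.01, among the highest values of the members. It was the 1 open member of 33 (3.03%) that was not open at its own start in both libraries, against 10.3% of all open genes.

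**Figure D3:**
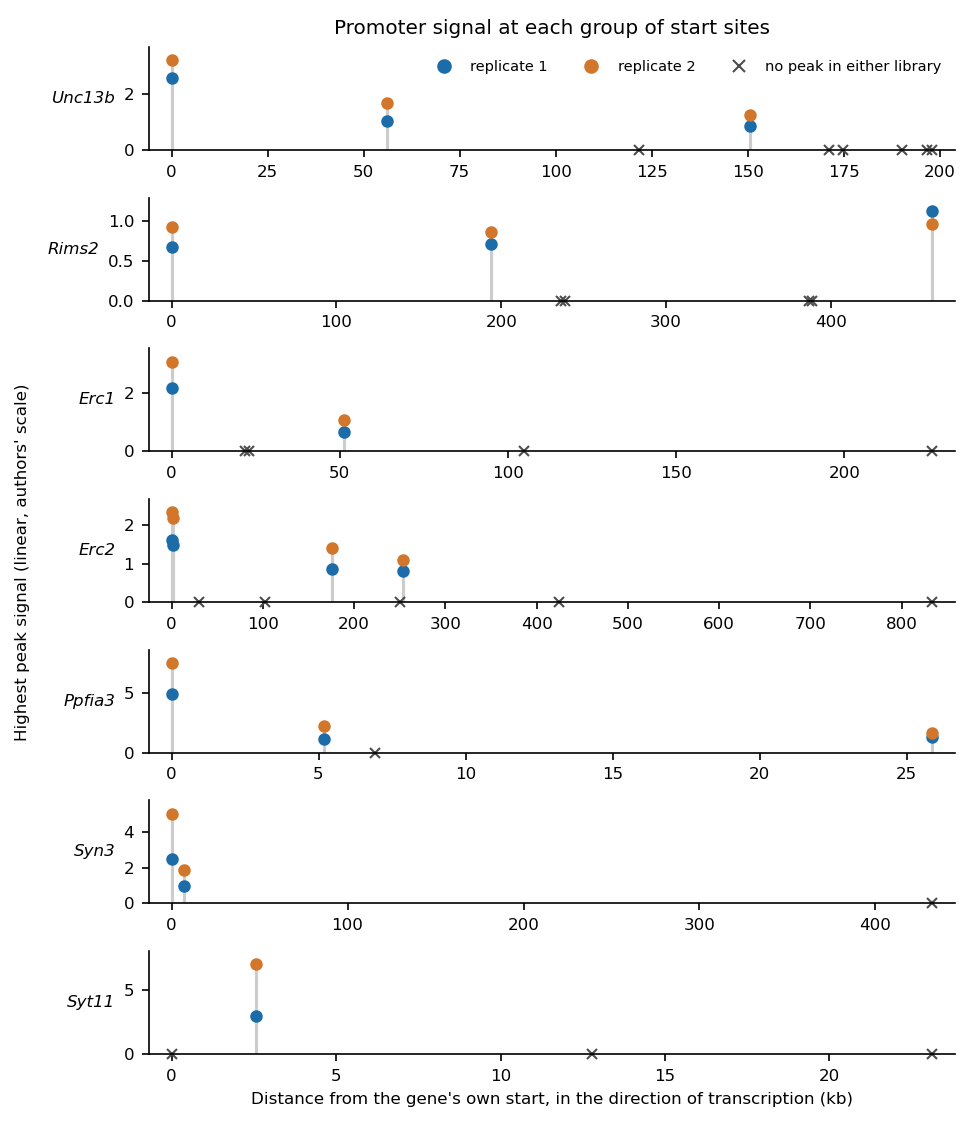
Promoter signal in both libraries (linear, the authors' scale) at each group of start sites of the 6 members with more than 1 open group and of Syt11, against the distance of the group from the gene's own start in kb. Crosses are groups without a stricter peak in either library. Signal is highest at the own start except in Rims2, where it is highest at 461305 bp, and in Syt11, where it is found at 2565 bp alone.

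Motifs were searched as fixed letters on both strands within 500 bp of the own start, and a match is a description of the letters only. The Sp/KLF letters GGGGCGGGG stood in 18 of 38 members (47.4%), against 22.9% of all protein-coding genes and 32.8% of the open ones. The NRF1 letters GCATGCGC stood in 5 members (13.2%, against 5.56% of all genes and 8.09% of the open ones). The EGR letters GCGTGGGCG stood in 3 (7.89%, against 1.99% and 2.98%). For the others, shares are likewise given against all genes and then the open ones. The CRE letters TGACGTCA stood in 2 members (5.26%, against 3.32% and 4.82%). The YY1 letters AAGATGGCG stood in 2 (5.26%, against 3.56% and 5.91%), above all genes but below the open ones. The E-box CAGATGG stood in 4 (10.5%, against 15.3% and 12.7%) and the AP-1 letters TGANTCA in 9 (23.7%, against 18.9% and 14.03%). The RFX letters GTTNCCATG stood in 1 (2.63%, against 3.87% and 3.73%) and the MEF2 letters TATTTTTAG in 0 (against 1.26% and 0.884%). The members' own starts were rich in CpG, with a median observed over expected ratio of 0.683 against 0.552 for all genes and 0.729 for open genes, and 28 of the 38 lay in the upper 5 deciles of all genes. The part of CpG content in the motif counts and in the share of open promoters was not tested. Across deciles of that ratio, the share of open genes ran from 5.24% in the lowest to 91.9% in the highest.

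Footprints showed which of these matches were covered. Around any start site of the members, 144 matches to the 10 motifs were found, none overlapping a match to another motif. Of these, 36 touched stricter peaks of both libraries and 14 touched footprints of both. The same counts were not made over all protein-coding genes, so these do not set members apart. Only 6 of the 144 matches lay whole in footprints of both libraries. They were Sp/KLF matches centred at -52 bp from the own start of Vamp2, -73 bp in Unc13b, -402 bp in Erc1 and 18 bp in Rab3a, and EGR matches at -8 bp in Vamp2 and 56 bp in Synj1, where a minus sign means before the start. In the Vamp2 sequence printed above, both lie on the minus strand, so their reverse complements stand in the capitals. In Unc13a, 8 of 9 bases of an EGR match at -21 bp and 6 of 9 of an Sp/KLF match at -48 bp lay in footprints of both libraries. The CRE match of Syn1 at -70 bp had 1 of its 8 bases in footprints of both.

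RE1 is the element bound by REST, a repressor known for keeping neuronal genes silent outside neurons, and several presynaptic genes are textbook REST targets. It was searched as TCAGCACC, then 2 free bases, then GGACAG, around any start site. With up to 2 mismatches in the 14 fixed letters it stood in 8 of 38 members (21.1%). The shares were 4.74% of all protein-coding genes and 5.77% of the open ones. With up to 1 mismatch it stood in 5 (13.2%), against 148 genes (0.675%). Of these, 4 are printed below, on the strand of the motif, with the fixed positions in capitals and the 2 free ones in lower case.
Pclo (chr5:14680604-14680619, plus strand): TCAGCACCacGGTCAG
Rph3a (chr5:121009615-121009630, plus strand): TCAGTACCacGGACAG
Syp (chrX:7638738-7638753, plus strand): CCAGCACCgtGGACAG
Syn1 (chrX:20921134-20921149, minus strand): TCAGCACCgcGGTCAG
No base of the 8 matches lay in a footprint of either library. The match of Syn1, at -138 bp from its start, lay whole inside a peak of both libraries, as did that of Rab3a, which has 2 mismatches. That of Rph3a had 16 bases in the peak of replicate 1 and 4 in that of replicate 2, and that of Syp had 3 in each. The match of Pclo lay 165694 bp inside the gene, at -251 bp from an internal start and outside any stricter peak.

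Promoter footprints of members numbered 228 in replicate 1, of which 125 (54.8%) overlapped a footprint of replicate 2, with a Wilson interval of 48.3% to 61.2%. The share over all protein-coding genes was 58.9%. Seen from replicate 2, 123 of 249 footprints (49.4%) of members were found in replicate 1, with a Wilson interval of 43.2% to 55.6%. The share over all genes was 57.7% in that direction. Both intervals cover counting error only. The open members had a median of 6 promoter footprints in each library, against 5 for all open genes. Rph3a had all of its 6 replicate 1 footprints found in replicate 2, and Dnm1 all of its 3. In Syn3 it was 2 of 7 and in Doc2a and Cplx2 0 of 2 each. The most footprints were counted in replicate 2 at Ppfia3, 21, of which 8 were found in replicate 1.

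Away from promoters, peaks of replicate 1 that overlapped a peak of replicate 2 and lay over 1000 bp from any start site were counted in each gene body with 50 kb on both sides. Members had a median of 3.5 such shared distal peaks, against 2 over all protein-coding genes. At least 1 was found for 34 of 38 members, against 73.8% of all genes. The gene bodies of members were longer, with a median of 66.5 kb against 17.4 kb, and per 100 kb of window the medians were 1.60 and 1.14. The members without any were Pclo, Cplx1, Synj1 and Syt4, although the body of Pclo spans 348.5 kb. In all, 158 peaks were found, 74 in gene bodies, 47 upstream and 37 downstream, and for 90 of them the member's own start was the nearest protein-coding start. Their median signal was 1.10, against 0.897 for all 31956 shared distal peaks.

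**Figure D4:**
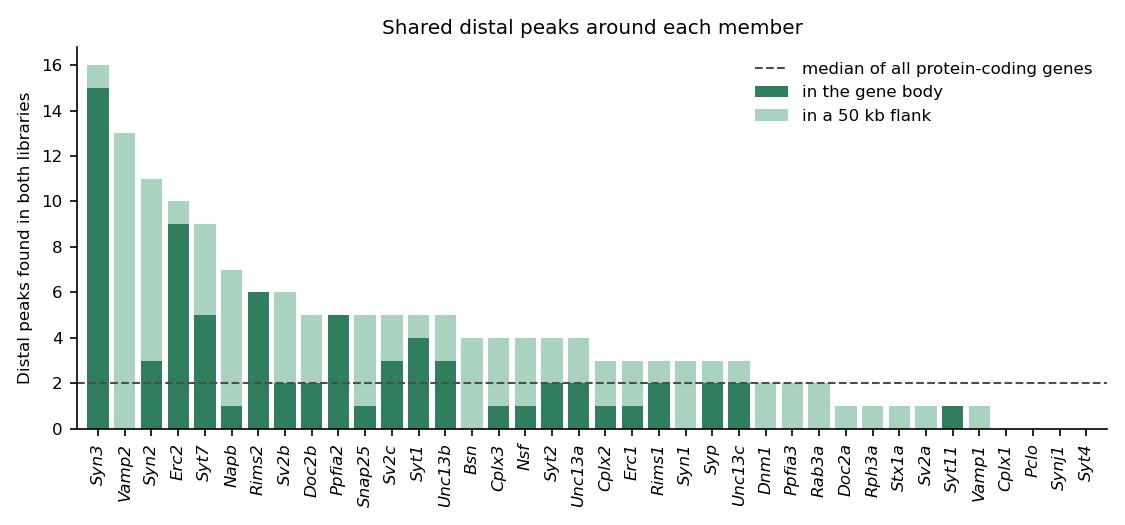
Number of shared distal peaks around each of the 38 members, in the gene body (dark) and in the 50 kb flanks (light), with the median of all protein-coding genes as a dashed line at 2. Syn3 leads with 16, of which 15 are in the body, and the 13 of Vamp2 all lie in its flanks.

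The members with the most differed in where the peaks lay. Syn3 had 16, of which 15 lay in its body of 443.8 kb, and for 8 of the 16 the nearest start was that of Timp3, a gene that lies within an intron of Syn3. Vamp2 had 13, none in its short body and none with its own start nearest. Its strongest, with 3.68 and 4.92, lay 8641 bp downstream of the Vamp2 start and 1817 bp from the start of the clock gene Per1, and 2 of the 13 overlapped each other in the list as deposited. Syn2 had 11, 8 of them nearest to its own start. Erc2 had 10, 9 of them in its body of 856.1 kb, and all 10 stood in the window of no other protein-coding gene. Syt7 had 9, of which 3 were nearest to its own start.

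Some distal peaks of members had a higher signal than the member's own promoter. The strongest with the member's own start nearest was that of Bsn, 10937 bp upstream of the gene (chromosome 9, 108201181 to 108201460), with 3.06 in replicate 1 and 4.06 in replicate 2. Both values were above those of the promoter of Bsn itself, 1.30 and 1.89. Unc13c had a peak 14195 bp upstream with 1.51 and 1.91, likewise above its promoter at 0.678 and 0.614. Cplx2 had a peak in its body, 1590 bp from its start, with 1.87 and 2.63. Its promoter had 0.830 in the larger list of replicate 1 and 1.30 in replicate 2. Rims2 had 6 shared distal peaks, all in its body and all in no other protein-coding gene's window, with 1.20 and 1.80 at the highest. Cplx3, without a promoter peak, had 4 in its window, of which 2 had its own start nearest, with 1.05 and 1.35 in the body and 0.844 and 0.849 upstream.

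**Figure D5:**
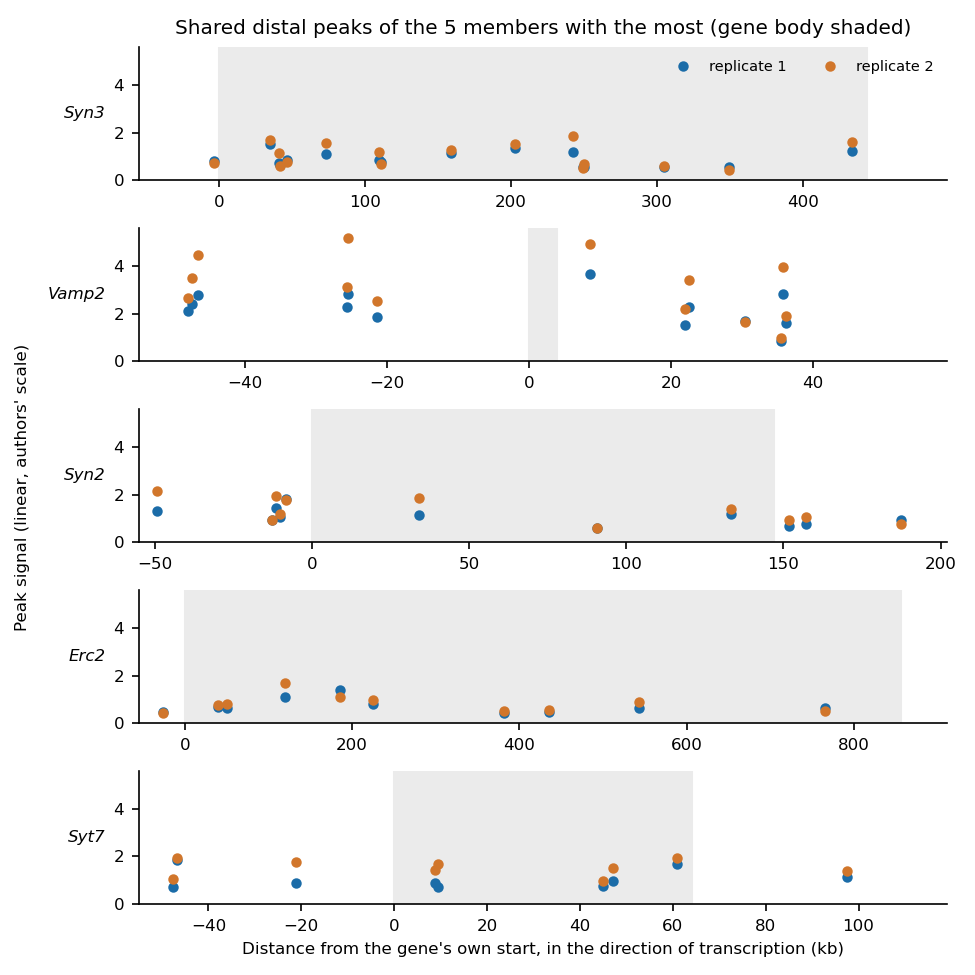
Signal of each shared distal peak in both libraries (linear, the authors' scale) against its distance in kb from the gene's own start, for the 5 members with the most, with the gene body shaded. The peaks of Syn3 and Erc2 lie along the gene body, and those of Vamp2 lie on both sides of it and reach 5.17 in replicate 2.

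Other presynaptic genes, 45 of 46 listed symbols with a protein-coding record of that name, gave a further background. This list is mixed, as it also holds widely expressed relatives of members. Among the members the open share was 86.8% and the median signal 2.64, against 35 of these 45 genes (77.8%) and a median of 2.85. The 3 highest of the 45 were relatives of members. The member Napb had 4.15 and 5.15, against 7.58 and 12.1 for Napa, the widely expressed alpha-SNAP. Dnm1 had 2.98 and 5.22, against 7.54 and 9.99 for Dnm2, the widely expressed dynamin. Snap25 had 2.49 and 3.04, against 5.87 and 11.2 for Snap29, a SNARE of many membranes. All 3 members were below their relatives without overlap. This largely followed from the pick, as the means of these relatives all exceeded the highest mean of any member, 6.23. It does not describe relatives in general. The 5 with no stricter peak in either library were Rims3, Syngr3, Unc13d, Cplx4 and Doc2g. Of these, Rims3 and Syngr3 had larger-list peaks in both libraries.

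Markers of cell types give the setting of these values. Of the lists used, 2 of 3 genes of neurons (Tubb3 and Map2), 2 of 4 of cortical excitatory neurons, 0 of 3 of interneurons, 1 of 4 of astrocytes, 3 of 4 of the oligodendrocyte lineage, 1 of 3 of microglia, 0 of 2 of endothelium and 0 of 3 of other tissues were open in both libraries. Rbfox3, the gene of the neuronal marker NeuN, was open in replicate 2 alone, at 1.29. The mixture of cell types in each library and its part in the members' signals was not tested. Replicate 1 had 60071 stricter peaks and replicate 2 had 70563, and all 5 members without peaks in both stricter lists lacked one in replicate 1.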

How the data were processed

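DNase-seq libraries of 2 animals were used as 1 group. Peaks, footprints and cut-rate lists were made by library from its own alignments on mm10, without pooling, per the labels and the texts deposited beside the files. The sources used here do not give the tools, thresholds, signal scale or number of tags. The deposited peak signal was scaled by the authors in whole steps, 0.00692 in replicate 1 and 0.00758 in replicate 2. Every deposited footprint carried a p-value of 0.01, so only positions were used, and the deposited cut-rate lists held false discovery rates (q-values) under 0.05. Of the 2 peak lists per library the shorter was taken as stricter.

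Promoter signal was the highest peak within 500 bp of any GENCODE M21 start site. Overlap needed 1 bp. Distal peaks had midpoints over 1000 bp from all start sites. Scripts were tested on simulated intervals (Python 3.11.15, pandas 2.3.3, SciPy 1.17.1). Genes named followed a written rule: all members by role, extremes of signal, ratio and distal peaks, and members without peaks. Genes named for single start sites, footprints, motifs or distal peaks beyond that were chosen after their values were seen. Members, gene lists and motifs were chosen with earlier results of these data known, and a search for RE1 at own starts with up to 1 mismatch was added after seeing the data. The SD is over 2 libraries, while Wilson intervals (95%, counting error only) are over genes or footprints and do not cover the spread between libraries. Alternatives changed windows, lists, overlap and libraries.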

Additional observations from a re-analysis of the deposited data

How the results depend on the processing

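Of 50 alternatives, 13 moved their value, by over 1.5 times for counts and the median of distal peaks, and by more than the SD between libraries for the median signal and the footprint share. The other 37 did not. Open members numbered 30 to 37 and 33 to 37 with 1 library left out. Other presynaptic genes numbered 36 to 39 with 1 library left out. The members' median signal was 1.97 to 2.83, and the median of distal peaks 4.5 to 5, with 1 library left out. Separated paralogue pairs numbered 16 to 20.

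The share of replicate 1 footprints found again, 54.8%, became 33.3% with a reciprocal overlap of 50%, 59.6% within 250 bp, 47.5% within 1000 bp, 59.6% inside shared peaks, and 49.4% from replicate 2. The median of 3.5 distal peaks became 1 in the gene body alone, 2 with 20 kb flanks and 6.5 with the larger lists. RE1 matches in 8 members (4.74% of all genes) became 5 with up to 1 mismatch (0.675%), 22 with up to 3 (32.3%), 5 within 250 bp (2.82%), 5 at the own start alone (2.19%) and, in the alternative added after seeing the data, 4 at the own start with up to 1 (0.397%). Windows and mismatches set these counts by construction.

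No contrast between groups of animals was possible because the libraries form 1 group. The 2 libraries allow no test of a paralogue pair, signals depend on a scale that was not given, and peak lists give no value for sites below their thresholds.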

Other observations

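The shared distal peaks of members held the motifs at shares near those of all shared distal peaks. The E-box CAGATGG stood in 19 of 158 members' peaks (12.03%, against 12.84% of all 31956), the AP-1 letters in 12 (7.59%, against 7.15%) and the RFX letters in 4 (2.53%, against 4.08%). RE1 with up to 2 mismatches stood in 1, against 0.347% of all. That peak lay downstream of Syn1, 91873 bp from its start, and replicate 1 gave it 1.07 and replicate 2 gave it 1.80, and the match touched a footprint of replicate 1 alone.

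Syt4 held the 1 exact RE1 match among the members, 216 bp after its start, and no base of it lay in a stricter peak or a footprint of either library.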
